A study of Mus musculus with 4 samples.

Results

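These results describe 37 genes of the integrated stress response, serine synthesis and one-carbon metabolism in mouse mammary tumour cells. The genes were chosen by function and gene name, as rows of both deposited expression tables whose gene column holds the symbol. The choice was made with earlier results of these data known. All 37 had exactly 1 row in each table, among 22440 rows of one table and 11708 of the other. They cover 2 eIF2 alpha kinases, 4 transcription factors, 6 stress effectors and feedback genes, 3 serine synthesis enzymes, 3 cytosolic and 4 mitochondrial folate enzymes, 6 other amino acid enzymes and 9 tRNA synthetases.

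The RNA came from 4 cultures of the line MMTV-Myc, in which the virus promoter MMTV, active mainly in mammary epithelium, drives a Myc transgene. The first pair of libraries set bulk cells (day 0, labelled wild type) against mammosphere cells (day 20, labelled wild type). The second pair set cells with a control short hairpin RNA (shRNA), labelled wild type (shLuc), against cells with the Cbx8 shRNA sh68, 1 hairpin. The latter were labelled Cbx8 knockdown. The control hairpin was named for luciferase in one label and as scrambled in another. The growth form of these 2 cultures was not stated. Cbx8 is a chromodomain subunit of Polycomb repressive complex 1, and both shRNA cultures were kept under 2 µg/ml puromycin. The bulk medium held 2% serum, 10 µg/ml insulin, glutamine and nonessential amino acids. The mammosphere medium is listed with EGF and bFGF at 20 ng/ml each and the supplement Gem21, and no serum, glutamine or amino acid additive is listed for it; spheres grew on low-attachment plates and were passaged every 4 days. Medium, attachment, time and sphere state therefore cannot be told apart in the first pair. Each group was 1 library, so every difference below compares 2 libraries and carries no estimate of the spread between cultures, and no test was possible.

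In the integrated stress response, kinases that sense endoplasmic reticulum stress or missing amino acids phosphorylate the translation factor eIF2 alpha, which slows protein synthesis in general but favours translation of the ATF4 mRNA. The ATF4 protein activates genes for amino acid synthesis, amino acid uptake and tRNA charging, together with genes that feed back on the response. Serine made from a glycolytic intermediate gives carbon units to folate, which parallel sets of enzymes in mitochondria and cytosol convert for nucleotide and methyl group synthesis. Because ATF4 is controlled to a large extent at translation, its transcript level is not a measure of its protein.

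As to the libraries as a whole, the depth is unknown because the files hold FPKM (fragments scaled by transcript length and library total) and no counts. Cbx8 measured 4.74 FPKM under the control shRNA and 1.23 under sh68, 3.84-fold lower, and the authors' deposited table gives q = 0.385. Krt8 and Krt18, keratins of simple epithelia, summed with 4 other epithelial markers to 926 FPKM in bulk cells and 63.5 in the mammosphere library, and the epithelial markers Epcam and Cdh1 were at 1.06 FPKM or less in each. Leukocyte markers summed to 457 FPKM over 13 genes in bulk cells and 8.24 in mammospheres, where 5 of the 13, including Tyrobp and C1qb, were listed at 0. Fibroblast markers summed to 888 and 153 FPKM over 10 genes, of which Lum was at 0 in mammospheres, and 6 endothelial markers summed to 6.53 and 0.375 FPKM, with Tek and Emcn at 0. All 13 leukocyte markers and 9 of the 10 fibroblast markers were at least 2-fold lower in mammospheres. Of all rows with 1 FPKM or more in either library, 17.3% were. The part of these other cells in the differences below was not tested, and fewer cells of a type cannot be told apart from less RNA per cell. Only 2 of the 13 leukocyte and 6 of the 10 fibroblast markers had a row in the knockdown table, and no endothelial marker did. Those leukocyte markers summed to 27.3 FPKM under the control shRNA and 41.1 under sh68, and those fibroblast markers to 380.4 and 556 FPKM. Single genes made up most of these sums, Cd14 at 27.1 and 41.0 FPKM and Sparc at 317 and 479, whereas Col3a1 (2.33 and 0.675), Mmp2 (2.81 and 1.32), Col1a1 (0.880 and 0.441) and Itgam (0.278 and 0.123) were lower under sh68. Krt14, a keratin of basal epithelium, was at 1.09 FPKM under the control shRNA and 10.5 under sh68, and the authors' deposited table gives q = 0.0325. The part of these markers in the knockdown values was not tested either.

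Between bulk and mammosphere cells the 37 genes divided by role. Enzymes of serine, mitochondrial folate, asparagine, alanine and proline synthesis and the tRNA synthetases were higher in mammospheres, whereas Atf4 itself, Ddit3, Cebpb, Nupr1, Ppp1r15a and the kinase gene Eif2ak3 were lower. Past 2-fold, 11 of the 37 were higher and 7 lower, with 28 positive and 9 negative log2 fold changes and a median of 0.44. Fold changes are log2((FPKM + 1)/(FPKM + 1)), which understates the change of low genes. Counts past a fold limit, ranks and medians use this measure, whereas a fold printed beside a gene's FPKM is the plain ratio of its 2 FPKM values and is larger for low genes. Among all 11603 rows with 1 FPKM or more in either library, 3.54% passed 2-fold upward and 17.3% downward, 34.7% were positive, and the median was −0.24. Of the 25 enzyme genes 11 were 2-fold higher and 1 lower, with a median of 0.91. At 1.5-fold 17 of the 37 were higher and 8 lower, against 9.86% and 30.7% of all rows. At 4-fold 3 were higher and 2 lower, against 0.526% and 5.54% of all rows. Of the 12 regulators and effectors none was 2-fold higher and 6 were lower, with a median of −1.03.

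Genes expressed at 1 FPKM or more in both libraries had a median log2 ratio of −0.21, so the typical gene was lower in mammospheres. Since FPKM is scaled to the library total, this median does not measure a difference in total expression. Relative to that shift, 17 of the 37 passed 2-fold upward and 5 downward, against 5.98% and 13% of all rows. With upper quartiles set equal the counts were again 17 and 5, against 6.8% and 13.7% of all rows. No gene of the 37 changed sign under either scaling. Eif2ak3 and Ddit3 were no longer 2-fold lower, and Trib3, Psat1, Aldh18a1, Nars, Sars and Wars passed the 2-fold limit.

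Of the 37 genes, 32 were tested in the authors' deposited table, and 5 of them were higher and 3 lower there at q under 0.05. Among all 4045 rows tested there, 1.73% were higher and 10.2% lower at that limit. By fold alone 10 of the 32 were 2-fold higher and 5 lower, against 3.73% and 16.2% of the 4045 rows. The 5 higher genes were Aldh1l2, Gpt2, Gcat, Pck2 and Psph, and the 3 lower ones were Ppp1r15a, Nupr1 and Atf4. Eif2ak3, Eif2ak4, Sesn2, Aldh1l1 and Pycr1 were not tested by the authors.

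**Figure D1:**
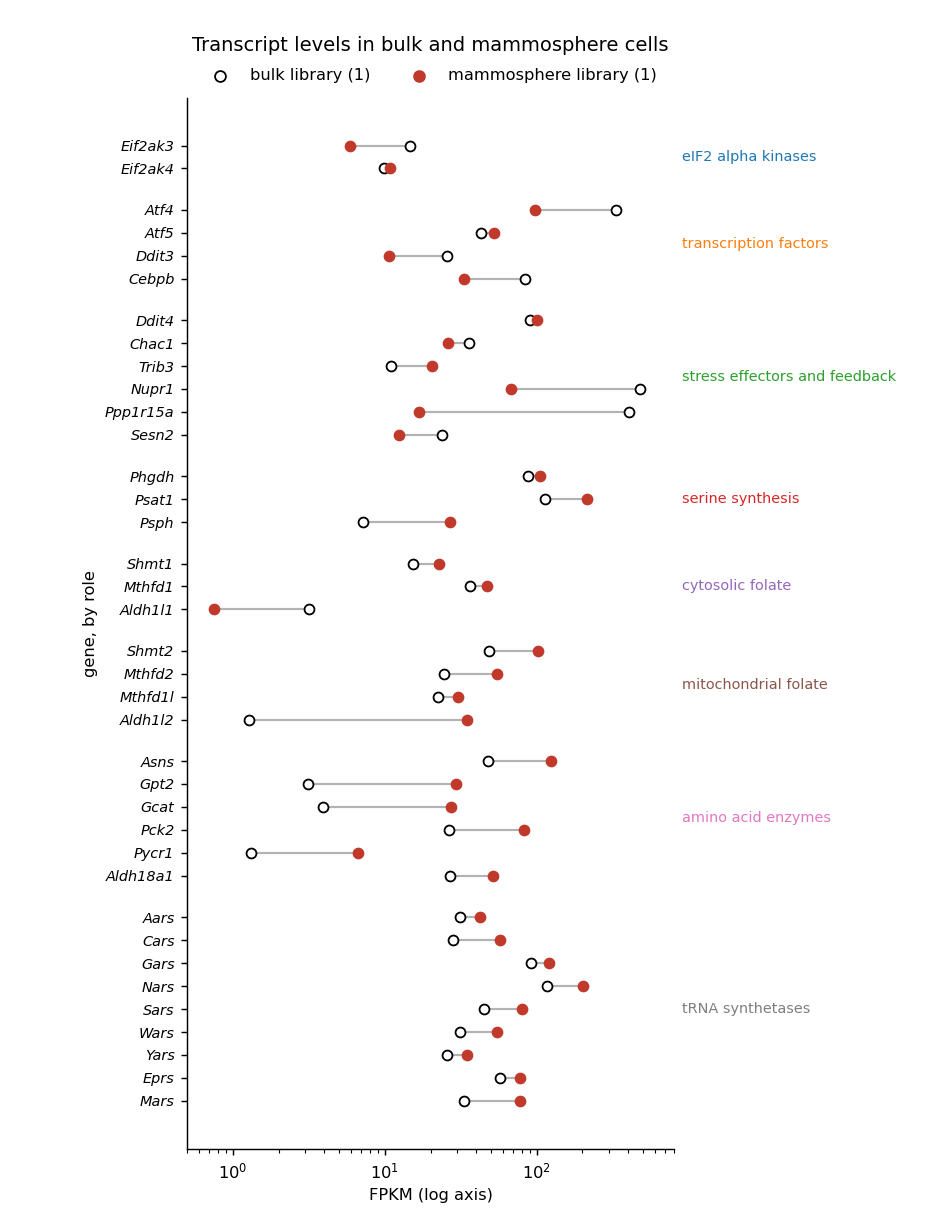
FPKM of each of the 37 genes on a log axis, with an open circle for the bulk library, a filled circle for the mammosphere library and a line joining them, grouped by role. The filled circle lies to the right of the open one for every serine, mitochondrial folate, amino acid and tRNA synthetase gene, and far to the left for Ppp1r15a and Nupr1.

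Among the kinases, Eif2ak3 (PERK, the sensor in the endoplasmic reticulum membrane) was at 14.6 FPKM in bulk and 5.89 in mammosphere cells. Eif2ak4 (GCN2, which senses uncharged tRNA) was at 9.88 and 10.9 FPKM, a log2 difference of 0.13. The kinase of the reticulum was thus lower in mammospheres and the amino acid sensor nearly level.

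Atf4 (mm9, chr15:80085613-80087971) was at 330 FPKM in bulk and 97.1 in mammosphere cells, 3.40-fold lower, and the authors' deposited table gives q = 0.0239. It was among the most abundant transcripts of both libraries, at percentile 98.3 of expressed rows in bulk cells and 95.0 in mammospheres. Cebpb, a bZIP factor that can pair with ATF4, was at 84.0 and 33.0 FPKM. Ddit3 (CHOP, a factor induced by prolonged stress) was at 25.5 and 10.7 FPKM. In the authors' deposited table q was 0.103 for Cebpb and 0.268 for Ddit3. Atf5, a close relative of Atf4 that is also controlled at translation, stood apart from these 3 at 42.8 and 52.1 FPKM. The ratio of Atf5 to Atf4 within a library was 0.130 in bulk cells and 0.537 in mammospheres.

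Of the effectors and feedback genes, Ppp1r15a (GADD34, the inducible subunit of the phosphatase that restores eIF2 alpha) differed most. It was at 406 FPKM in bulk and 16.9 in mammosphere cells, 24.1-fold lower, and ranked 83 from the lowest of 11603 fold changes (q = 9.52e-11 in the authors' deposited table). Nupr1, a small stress-induced chromatin protein, had the highest level of the 37 genes in bulk cells at 481 FPKM and was at 67.7 in mammospheres, 7.10-fold lower, with q = 1.12e-05 in that table. Among expressed rows Ppp1r15a stood at percentile 98.7 in bulk cells and 63.7 in mammospheres, and Nupr1 at 98.8 and 92.1.

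The remaining effectors differed less and not in 1 direction. Sesn2, a leucine sensor that restrains mTORC1, was at 23.7 and 12.5 FPKM, and Chac1, an enzyme that degrades glutathione, at 35.6 and 25.9. Ddit4 (REDD1, another mTORC1 inhibitor) was at 90.8 and 100.3 FPKM. Trib3, a pseudokinase that binds ATF4 and CHOP and dampens the response, was at 11.0 and 20.3 FPKM, so the 2 feedback genes Trib3 and Ppp1r15a differed in opposite directions. The ratio of Trib3 to Ppp1r15a was 0.0271 in bulk cells and 1.21 in mammospheres.

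All 3 genes of serine synthesis were higher in mammospheres, by sizes that grew along the pathway. Phgdh, the dehydrogenase of the first step, was at 88.1 FPKM in bulk and 104.5 in mammosphere cells. Psat1, the transaminase of the second, was at 113 and 213 FPKM and was the highest of the 37 genes in the mammosphere library. Psph, the phosphatase of the last, was at 7.16 and 27.0 FPKM, 3.78-fold higher, the only one of the 3 past 2-fold. The ratio of Psph to Phgdh was 0.0812 in bulk cells and 0.259 in mammospheres.

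The listed folate enzymes differed by compartment in median and in sum. Single genes overlapped, with cytosolic Shmt1 at a log2 change of 0.53 and mitochondrial Mthfd1l at 0.43. Of the 4 mitochondrial genes 3 were at least 2-fold higher and the median was 1.09, whereas of the 3 cytosolic ones none was 2-fold higher and 1 was lower, with a median of 0.36. Summed over genes, the mitochondrial set was at 96.6 FPKM in bulk and 221 in mammosphere cells, and the cytosolic set at 55.2 and 70.9. The mitochondrial to cytosolic ratio was 1.75 in bulk cells and 3.12 in mammospheres.

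The 2 formyltetrahydrofolate dehydrogenases, which release the carbon unit as CO2, showed the widest gap between compartments. Mitochondrial Aldh1l2 (mm9, chr10:82950191-82996885) was at 1.28 FPKM in bulk and 34.6 in mammosphere cells. That was a plain ratio of 27.0 and a log2 change of 3.96, rank 4 from the highest of 11603, and the authors' deposited table gives q = 1.75e-09. Cytosolic Aldh1l1 was at 3.15 and 0.747 FPKM, a log2 change of −1.25 between low levels, in a row the authors did not test. The ratio of Aldh1l2 to Aldh1l1 was accordingly 0.406 in bulk cells and 46.3 in mammospheres.

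The other folate pairs were less divided. Shmt2, the mitochondrial serine hydroxymethyltransferase, was at 48.5 and 101 FPKM, and its cytosolic counterpart Shmt1 at 15.4 and 22.8. Mthfd2, a mitochondrial methylenetetrahydrofolate dehydrogenase, was at 24.4 and 54.6 FPKM. Mthfd1l, the mitochondrial formate-producing synthetase, was at 22.4 and 30.5 FPKM, and Mthfd1, the cytosolic enzyme with both activities, at 36.6 and 47.4. Thus Shmt2 to Shmt1 moved from 3.14 to 4.45 and Mthfd2 to Mthfd1 from 0.667 to 1.15, while Mthfd1l to Mthfd1 was 0.613 and 0.644.

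**Figure D2:**
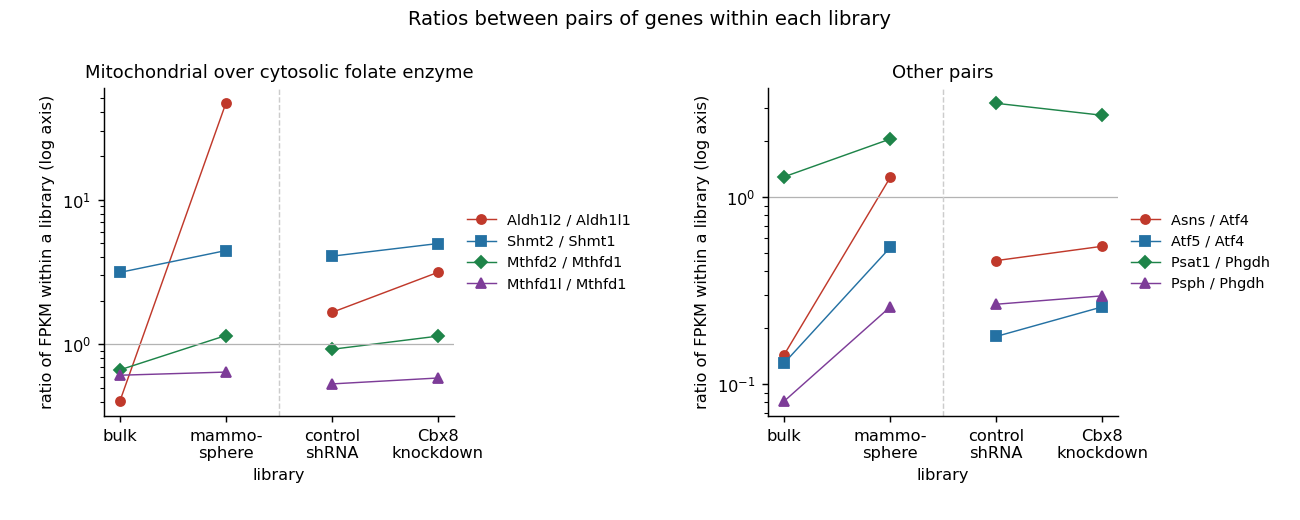
Ratio of FPKM between 2 genes within each of the 4 libraries (log axis), with the bulk and mammosphere libraries of one table left of the dashed line and the shRNA libraries of the other right of it. The ratio of Aldh1l2 to Aldh1l1 runs from 0.406 to 46.3 between bulk and mammosphere cells, while the ratio of Mthfd1l to Mthfd1 stays between 0.534 and 0.644 in all 4 libraries.

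All 6 amino acid enzymes were higher in mammospheres, 5 of them by 2-fold or more, with a median of 1.67, the highest of the 8 roles. Gpt2, the mitochondrial alanine transaminase, was at 3.13 FPKM in bulk and 29.4 in mammosphere cells, 9.39-fold higher (q = 1.91e-05 in the authors' deposited table). Gcat, which makes glycine from a threonine intermediate, was at 3.90 and 27.4 FPKM in a row that also carries the receptor gene Galr3 (q = 2.4e-08 in that table). Pycr1, the last enzyme of mitochondrial proline synthesis, was at 1.31 and 6.66 FPKM, and Aldh18a1, the first enzyme of that pathway, at 26.7 and 51.2. Pck2, the mitochondrial phosphoenolpyruvate carboxykinase, was at 26.3 and 82.5 FPKM, and the authors' deposited table gives q = 0.0321. Asns (mm9, chr6:7625170-7643182), asparagine synthetase and a widely used readout of ATF4, was at 47.5 and 123 FPKM, 2.60-fold higher, with q = 0.0895 in that table. Against the lower Atf4 transcript, the ratio of Asns to Atf4 was 0.144 in bulk cells and 1.27 in mammospheres.

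The 9 tRNA synthetases, which attach amino acids to their tRNAs, were all higher in mammospheres, by log2 changes from 0.39 to 1.19 (median 0.80). They varied less among themselves than the enzyme groups above. Mars was at 33.3 FPKM in bulk and 77.1 in mammosphere cells and Cars at 28.0 and 57.3, the 2 past 2-fold. Nars, the most abundant, was at 116 and 203 FPKM. Sars was at 44.8 and 79.8 FPKM and Wars at 31.1 and 54.8. Gars (91.9 and 120.6 FPKM), Eprs (57.3 and 77.9), Aars (31.2 and 42.0, in a row shared with Exosc6) and Yars (25.8 and 34.6) differed by less than 1.5-fold. Mars and Ddit3 lie in the same locus of the table (mm9, chr10:126727848-126748842) and went in opposite directions. No source used here states whether counting used the strand, so reads from any overlap of the 2 genes cannot be assigned.

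The other tRNA synthetase genes lie outside the 37. Both sets were chosen with earlier results of these data known, so the difference between them is a description and not a test. The other 12 cytosolic ones had a median of 0.18, with 9 positive and 1, Iars (28.8 and 68.8 FPKM), past 2-fold. Lars was at 51.6 and 102 FPKM and Farsb at 39.2 and 49.2, while Tarsl2 was at 4.59 and 2.34. The 17 mitochondrial ones, which charge tRNAs inside that organelle, had a median of −0.24, near the −0.24 of all rows, with 8 positive. Among all rows 34.7% were positive, 3.54% were 2-fold higher and 17.3% lower. Pars2 (0.838 and 3.79 FPKM) was 2-fold higher among them and Lars2 (441 and 195) 2-fold lower. Yars2 was at 12.8 and 6.18 FPKM and Fars2 at 11.7 and 7.27.

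**Figure D3:**
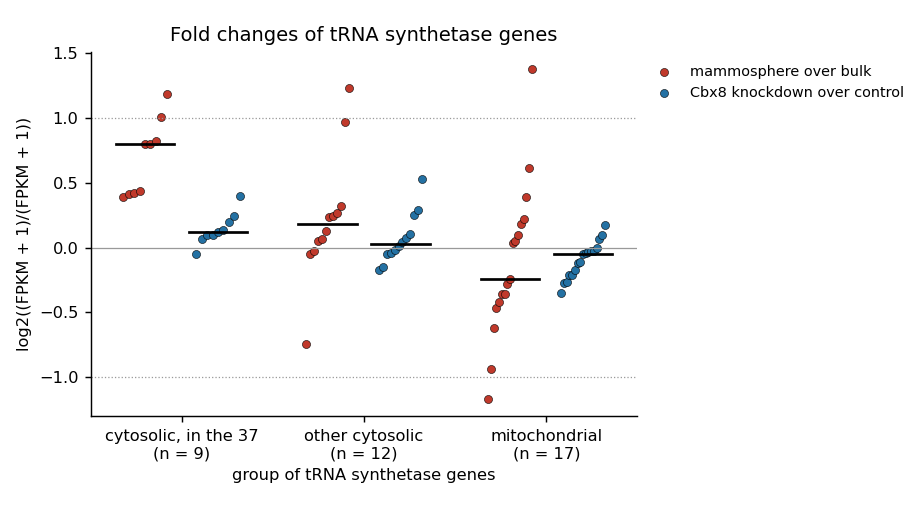
Log2 fold changes of tRNA synthetase genes, 1 point per gene, for 9 cytosolic enzymes among the 37 genes, 12 other cytosolic and 17 mitochondrial enzymes, with black bars at the medians and dotted lines at 2-fold. In the mammosphere comparison the medians are 0.80, 0.18 and −0.24, and in the knockdown comparison they are 0.12, 0.03 and −0.05. The sets of genes were chosen with earlier results of these data known.

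Further genes of the same pathways were set beside all rows, of which 3.54% were 2-fold higher and 17.3% lower (median −0.24). Of 28 other genes of the stress response at 1 FPKM or more, 1 was 2-fold higher and 7 lower (median −0.19). Atf3, a bZIP factor downstream of ATF4 and of many other signals, was at 753 FPKM in bulk and 3.87 in mammosphere cells. The pseudokinase Trib1 was at 47.7 and 5.12 FPKM, and the reticulum proteins Herpud1 and Hspa5 at 138 and 19.0 and at 2607 and 429. Of 18 other folate and methyl cycle enzymes, 2 were 2-fold higher and 1 lower (median 0.09). The higher ones were Cth, the cystathionine gamma-lyase, at 5.98 and 17.1 FPKM, and Mat2a, which makes S-adenosylmethionine, at 93.7 and 221. Ggh, a folate hydrolase, was at 1.42 and 0.0873 FPKM, and the thymidylate synthase Tyms at 7.66 and 14.2.

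Promoter sequence was set beside these values because ATF4 with a C/EBP partner binds a composite element whose core is TGATGNAA (TTNCATCA on the other strand). RefSeq promoter windows (GRCm38.p6, 250 bases before to 50 after a start) were found for 33 of the 37 genes, Mars under its later symbol Mars1. Searched on both strands, the core was present in 9 of the 33 (27.3%), against 4.51% of 27025 genes with a window. The genes were chosen for functions in the ATF4 response and linked pathways, so a share above that of all genes was not a test. The 9 genes were Chac1, Trib3, Nupr1, Asns, Pck2, Pycr1, Aars, Gars and Yars. Of them 3 were 2-fold higher and 1 lower in mammospheres, with a median of 0.42, against 6 and 6 of the 24 without a match, with a median of 0.40. The E-box CACGTG, which Myc and Max bind, was present in 4 of the 33 (12.1%), Nupr1, Gcat, Aldh18a1 and Aars, against 8.09% of all genes. In Nupr1 and Aars, which hold both, no match of one motif overlapped the other, and the lack of a match says only that these letters are not in the window.

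The stretches below show the core in the 3 promoters of 2-fold higher genes, in the 2-fold lower Nupr1, and in 3 genes that differed less. They are given 5′ to 3′ in the direction of the gene, with the core in capitals and positions counted from the RefSeq start.
Asns, chr6:7693210-7693258, minus strand, core at −23 to −16: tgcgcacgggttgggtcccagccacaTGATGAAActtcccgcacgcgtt
Pycr1, chr11:120643818-120643877, minus strand, core at −103 to −96: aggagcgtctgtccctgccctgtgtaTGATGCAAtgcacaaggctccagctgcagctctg
Pck2, chr14:55540137-55540196, plus strand, core at −103 to −96: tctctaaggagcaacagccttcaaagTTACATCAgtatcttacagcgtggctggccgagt
Nupr1, chr7:126625547-126625606, minus strand, core at −110 to −103: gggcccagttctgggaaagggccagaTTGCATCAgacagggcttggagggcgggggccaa
Chac1, chr2:119351023-119351082, plus strand, core at −193 to −186: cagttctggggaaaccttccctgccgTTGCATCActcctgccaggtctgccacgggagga
Aars, chr8:111033704-111033763, plus strand, core at −112 to −105: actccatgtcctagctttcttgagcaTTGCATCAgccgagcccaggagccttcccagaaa
Trib3, chr2:152344028-152344057, minus strand, core at 15 to 22: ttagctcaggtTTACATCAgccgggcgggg

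The core read TTGCATCA in Nupr1, 7.10-fold lower in mammospheres, in Chac1, 1.38-fold lower, and in Aars, 1.35-fold higher. The same letters on the opposite strand, TGATGCAA, stood in Pycr1, 5.08-fold higher, and in Yars, 1.34-fold higher. Aars held a further core, TTTCATCA, at 10 to 17, the letters also found in Gars. Pck2 and Trib3 shared TTACATCA and were 3.14-fold and 1.85-fold higher. These matches are a description of the sequence and were not tied to binding by any data used here.

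In the second pair of libraries none of the 37 genes was 2-fold higher or lower in Cbx8 knockdown than in control cells, against 0.262% and 0.394% of all 10670 rows at 1 FPKM or more. The same held after centring (0.262% and 0.384% of all rows) and with equal upper quartiles (0.234% and 0.431%). At 1.5-fold 1 was higher, Chac1, and 1 lower, Ddit4, against 2.06% and 2.12% of all rows. The median log2 change was 0.07 (all rows −0.01), and 26 of the 37 lay within 0.25 of 0, as did 74.8% of all rows. In the authors' deposited table none of the 37 was called at q under 0.05, the lowest being 0.390. Of all 11693 tested rows 0.128% were called higher and 0.077% lower. Cbx8 itself, the gene targeted, was not called there either (q = 0.385).

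Ddit4 had the largest difference, at 144 FPKM under the control shRNA and 81.1 under sh68, 1.77-fold lower and rank 86 from the lowest of 10670 fold changes. In the authors' deposited table it had p = 0.0026 and q = 0.390. Sesn2, the other mTORC1 inhibitor, was at 27.8 and 20.0 FPKM. Chac1 was at 19.0 and 29.9 FPKM, 1.57-fold higher. Atf5 was at 47.0 and 70.5 FPKM, and Atf4, by contrast, at 262 and 273. Cebpb was at 30.4 and 23.8 FPKM and Ddit3 at 9.81 and 11.4. The 2 genes far lower in mammospheres were nearly level here, with Ppp1r15a at 30.1 and 33.2 FPKM and Nupr1 at 113 and 119. Trib3 was at 24.1 and 25.9 FPKM, Eif2ak3 at 8.74 and 10.5 and Eif2ak4 at 17.6 and 16.5.

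Among the enzymes the 3 cytosolic folate genes were all negative, by log2 values from −0.38 to −0.19. Shmt1 was at 36.3 and 27.6 FPKM, Mthfd1 at 78.6 and 67.5 and Aldh1l1 at 2.35 and 1.93. The mitochondrial ones had a median of 0.00065 and were led by Aldh1l2 at 3.90 and 6.05 FPKM, with Shmt2 at 148 and 137, Mthfd2 at 72.7 and 77.0 and Mthfd1l at 41.9 and 39.6. The mitochondrial to cytosolic ratio of summed FPKM was 2.27 under the control shRNA and 2.68 under sh68. Negative changes were also the more common among the 17 other folate and methyl cycle enzymes (13 of 17, median −0.10), where none reached 1.5-fold. Among all rows 48.8% were positive and the median was −0.01.

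Serine synthesis was close to level, with Phgdh at 110.0 and 114.7 FPKM, Psat1 at 348 and 313 and Psph at 29.4 and 34.0. Of the amino acid enzymes, Asns was at 120 and 149 FPKM and Gpt2 at 15.0 and 11.2, the largest positive and negative changes of that group. Gcat was at 30.9 and 25.7 FPKM and Pck2 at 36.7 and 33.4, while Pycr1 (2.60 and 2.72) and Aldh18a1 (44.7 and 45.6) were level. Of the 9 tRNA synthetases 8 were positive (median 0.12), against 48.8% of all rows. Wars, at 51.3 and 67.9 FPKM, had the largest difference and Eprs, at 99.5 and 95.9, was the negative one. Of the other 12 cytosolic synthetases 7 were positive (median 0.03), led by Hars at 51.1 and 73.9 FPKM, and of the 17 mitochondrial ones 3 were (median −0.05). Among the 26 other stress response genes 15 were negative (median −0.02), and none reached 1.5-fold on the log2 measure. Jdp2 was at 29.2 and 43.3 FPKM and Hspa5 at 529 and 718. Lower under sh68 were Trib2, at 2.35 and 1.45 FPKM, and Sesn1, at 6.08 and 4.44.

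**Figure D4:**
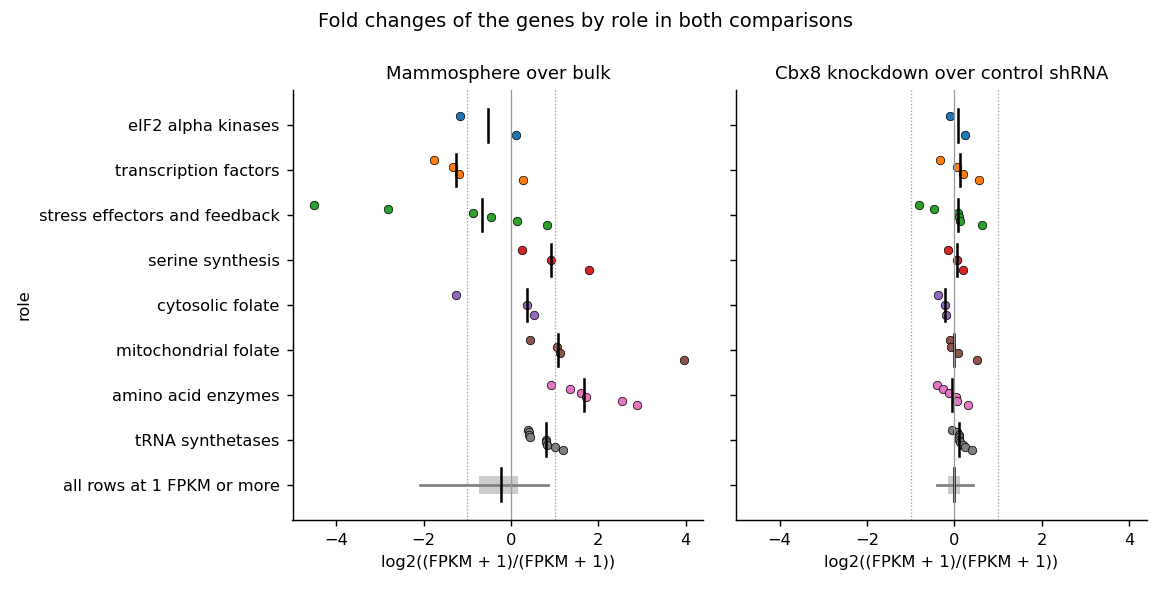
Log2 fold changes of the 37 genes by role, 1 point per gene, in the mammosphere comparison (left) and the knockdown comparison (right), with black bars at the medians and dotted lines at 2-fold. The bottom line of each panel gives all rows at 1 FPKM or more, with the bar from the lower to the upper quartile and the line over the middle 90%. Points on the left reach from −4.51 to 3.96 and those on the right from −0.82 to 0.63.

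Set side by side, the 2 comparisons share no library. The 11 genes at least 2-fold higher in mammospheres had a median log2 change of 0.08 in the knockdown, with 7 positive and 4 negative. The 7 genes at least 2-fold lower had a median of 0.07, with 5 positive and 2 negative. Both sets were thus close to all 37 genes, with a median of 0.07, 23 positive and 14 negative. Of all rows in the knockdown comparison 48.8% were positive. Aldh1l2 was positive in both comparisons (3.96 and 0.53), and Gpt2 was positive in the first and negative in the second (2.88 and −0.39). Ddit4, the gene that differed most in the knockdown, was nearly level between bulk cells and mammospheres.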

How the data were processed

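Per the labels' protocols, poly(A) RNA was made into cDNA with random primers and sequenced as single-end reads. The submitters' processing notes name TopHat 1.4.0 beside Cufflinks 1.3.0, Cuffdiff (listed as 0.0.7), FastQC 0.10.0 and build mm9, without settings. The authors deposited 2 tables, 1 per pair of libraries, with FPKM per gene and, for each row, the p-value and q-value of the authors' test of 1 library against 1. FPKM scaling makes a few very abundant transcripts lower all others in a library. The depth is unknown, so no counting interval was computed.

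Here fold changes were computed within a table as log2((FPKM + 1)/(FPKM + 1)). Rows with status OK or NOTEST and 1 FPKM or more in either library formed the background; 15 knockdown rows with placeholder values and 2 summary lines were left out. Genes past 2-fold were counted, with no test, since each group was 1 library. No knockdown row is at 0, and a gene at 0 there may have no row. The 37 genes and all lists were chosen with earlier results of these data known. Named are all 37 genes, Cbx8 and up to 4 genes per list with the largest absolute change; the markers Epcam, Lum, Tek, Emcn, Itgam and Col1a1 were named after their values were seen. The counting step was run on simulated data with planted changes well past the limit in abundant rows, which checks the counting alone. Promoter windows come from RefSeq (GRCm38.p6), and none of their coordinates were set against mm9; Aldh1l2, Cars, Nars and Wars had none. Proteins were not analysed here. Fold changes were recomputed with 0.1 or 5 FPKM added, with no minimum or one of 5 FPKM, at limits of 1.5-fold and 4-fold, with 2 rescalings, on tested rows only, on summed rows and by the authors' calls. Python 3.11.15, pandas 2.3.3 and numpy 2.4.6 were used.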

Additional observations from a re-analysis of the deposited data

How the results depend on the processing

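In the mammosphere comparison the 11 higher and 7 lower genes became 17 and 5 after centring on the median gene or with equal upper quartiles, where the median of the 37 was 0.65 and 0.73. That median was 0.67 over the 32 genes the authors tested. With 5 FPKM added, 8 were higher and 4 lower, Eif2ak3, Ddit3, Aldh1l1, Shmt2, Pycr1 and Cars falling short of 2-fold. At a 1.5-fold limit 17 were higher, and at 4-fold 3 were higher and 2 lower. By the authors' q under 0.05, 5 were higher and 3 lower. In the knockdown comparison 1 gene was higher and 1 lower at 1.5-fold, and otherwise every count was 0. An alternative chosen after seeing the data left out 7 genes in merged rows or shared loci (Atf5, Ddit3, Shmt2, Gcat, Aars, Yars and Mars) and gave 8 higher and 6 lower of 30 in mammospheres and 0 in the knockdown. No 2-fold gene changed sign under any alternative run. Apart from what each alternative changes by construction, the cause was not tested. Unknown depth and single libraries limit all values, most of all those of Aldh1l1, Aldh1l2, Gpt2, Gcat and Pycr1, which were under 4 FPKM in some library. No paired analysis was possible because each group is 1 library.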

Other observations

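Amino acid transporters, many of which ATF4 also activates, were mostly higher in mammospheres. Of 12 measured, 10 were positive, 2 were at least 2-fold higher and 1 lower (median 0.41). Among all rows 34.7% were positive, 3.54% were 2-fold higher and 17.3% lower (median −0.24). Slc7a5, the large neutral amino acid carrier, was at 78.1 FPKM in bulk and 238 in mammosphere cells, and the cystine carrier Slc7a11 at 14.0 and 39.2. In the authors' deposited table q was 0.134 for Slc7a5 and 0.0577 for Slc7a11. Slc38a2, a sodium-coupled carrier of small neutral amino acids, went the other way at 424 and 109 FPKM, and the authors' deposited table gives q = 0.0393. Amino acid enzymes outside the 37 genes had a median of −0.25 over 16 genes, near that of all rows. Of these 16, 1 was 2-fold higher and 4 lower. Glutamine synthetase Glul was at 160 and 22.7 FPKM and argininosuccinate synthetase Ass1 at 19.1 and 2.13, whereas the branched-chain transaminase Bcat1 was at 0.826 and 4.01. Of 13 purine synthesis genes, which use folate carbon units, 1 was 2-fold higher (Pfas, 6.50 and 18.5 FPKM, in a row shared with a microRNA) and 1 lower (Adssl1, 47.3 and 20.7), with a median of 0.02. In the knockdown comparison 9 of these 13 were negative (median −0.15), with Pfas at 25.8 and 16.3 FPKM. Of all rows there 48.8% were positive, and the median was −0.01.

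The tables were normalised separately, so levels across them are given only as values side by side. Of the 37 genes, 27 had their lowest FPKM of the 4 libraries in bulk cells and 8 had their highest there. The same counts were not made over all rows, so they are not shown to be particular to these genes. The 27 include all 9 tRNA synthetases and all 6 amino acid enzymes, and the 8 include Atf4, Ddit3, Cebpb, Chac1, Nupr1 and Ppp1r15a. Ppp1r15a was at 406 FPKM in bulk and at 16.9, 30.1 and 33.2 in the mammosphere, control and knockdown libraries. Ratios within a library, which do not depend on its scaling, gave the same order for some pairs. Mars to Ddit3 was 1.31 in bulk cells and 7.22, 7.35 and 6.78 in the other 3 libraries, and Trib3 to Ppp1r15a was 0.0271 in bulk cells and 1.21, 0.803 and 0.779 in the others. Psph to Phgdh was 0.0812 in bulk cells and 0.259, 0.267 and 0.296. Aldh1l2 to Aldh1l1, at 0.406, 46.3, 1.66 and 3.14, instead set the mammosphere library apart.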
